A study of Sus scrofa with 9 samples.

Results

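The genes described here are 7 genes of B cell surface and signalling proteins, MS4A1, CD79A, CD79B, BLK, BTK, BLNK and PAX5, out of 30477 genes in the deposited table. They were chosen by name, with earlier results of these data known. MS4A1 has no gene name in the table and was taken by its Ensembl identifier. All 7 passed the low-value filter, as did 17884 genes in all.

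The samples were outflow veins of arteriovenous fistulas (surgical joins of the carotid artery to the jugular vein, the kind of vessel used for dialysis access) in pigs with a chronic kidney disease model, which both groups carried. Kidney disease preceded the fistula by 28 days, and veins were harvested another 28 days on. In 6 MSC libraries the vein's outer wall had been covered at surgery with adipose-derived mesenchymal stem cells (MSCs) in Ringer lactate, and in 3 control libraries the vessel was untreated. The labels used here give no breed, age or cell dose, and no carrier-only group is labelled. The tags NT and F in the name of control 2, and Allo and M in that of MSC 1, have no key in the labels. Whether each library is its own animal is not said in the labels, so p-values reflect library-to-library spread, some of which may be technical. The question is what the treatment does to transcript levels in the outflow vein.

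B cells recognise antigen through a membrane antibody that is held with a pair of signalling chains, CD79A and CD79B. When antigen binds, kinases of the Src family such as BLK mark these chains, and the adaptor BLNK brings the kinase BTK to its target, phospholipase C gamma. CD20, the product of MS4A1, sits in the membrane of mature B cells, and PAX5 is the transcription factor that keeps a cell in the B lineage. BTK and BLNK are also made by macrophages, and BTK by mast cells, so in a whole tissue they are less particular to B cells than the other members. These roles are known mainly from human and mouse.

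Levels are given as scaled RPKM, the deposited RPKM (reads scaled to gene length and library size) divided by a factor that equalises libraries. Library depth ran from 16939157 to 47417606 reads. The veins held strong vein wall markers: the summed level of 9 such genes ran from 6158 to 48074 scaled RPKM over the 9 libraries. The collagen gene COL3A1 took 60.1% of that sum. By sign, 8 of the 9 were higher in MSC veins and 1 lower, with a median log2 fold change of 0.61. Of these, 0 passed an adjusted p of 0.05 with limma. The libraries differed in make-up. The share of reads on small non-coding RNA was 53.3% in MSC 6 and 40.4% in control 2, and between 6.75% and 16.4% elsewhere. The shallowest library, MSC 2, had reads on 94.5% of genes, and its median level over 26 genes foreign to a vein, such as hormone, eye and kidney genes, was 0.215 scaled RPKM, against 0 to 0.0134 in the other libraries. A level of a B cell gene in MSC 2 near 0.215 is therefore near what such genes showed there. BLK at 0.0943, PAX5 at 0.0526 and CD79B at 0.0360 scaled RPKM in MSC 2 were all below 0.215. Lane 7 of the flow cell held MSC 2, MSC 5 and MSC 6 and no control.

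MS4A1, BLK and PAX5 had mean levels several times lower in MSC veins, CD79B was below every control in 5 of 6 MSC libraries, and BTK and BLNK overlapped between the groups. None of the 7 passed the test over all genes. With limma 0 of 17884 genes passed in either direction at an adjusted p of 0.05 (0% of genes), and with limma-voom on the recovered reads 0 did too. At an unadjusted p under 0.05 there were 389 lower genes, or 2.18% of those tested, and 340 higher ones, or 1.9%. Of the 7 members, 4 were lower at that level, namely MS4A1, BLK, CD79B and PAX5, and none was higher. The sign was negative for 6 members, against 44.7% of all genes, and the median log2 fold change was −0.61, against 0.04 over all genes. The 1 positive sign was that of the CD79A row, which enters the median although its reads cannot be assigned to CD79A itself. These fold changes are of scaled RPKM + 1, a scale that understates the change of low genes. In a vein sampled whole, fewer B cells and less RNA per B cell cannot be told apart.

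**Figure D1:**
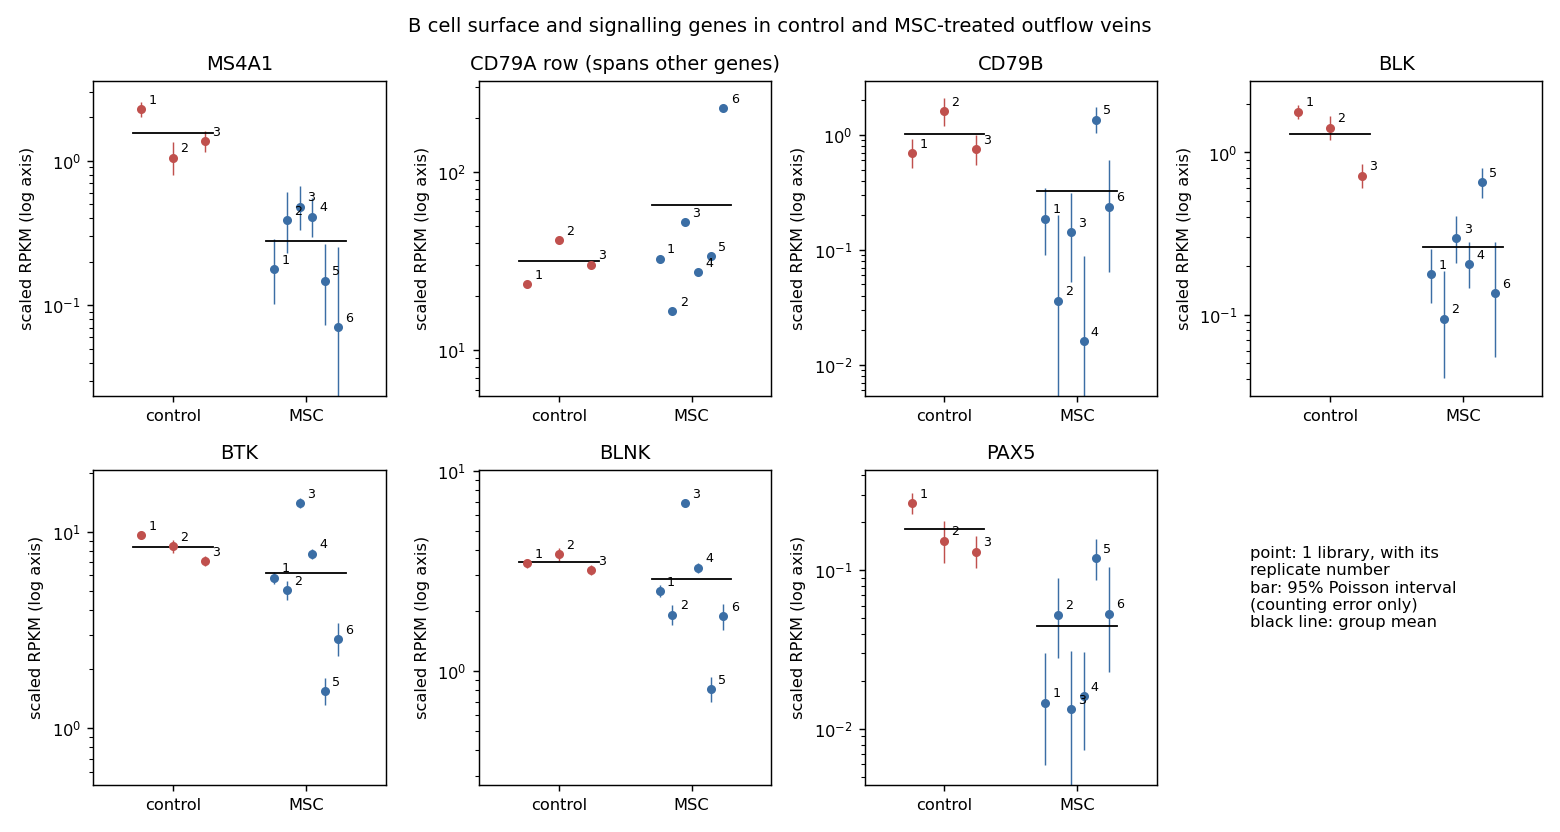
Scaled RPKM (log axis) of each of the 7 genes in 3 control libraries (red) and 6 MSC libraries (blue), with replicate numbers, exact Poisson 95% intervals for counting error and a line at each group mean. MS4A1, BLK and PAX5 show all MSC libraries below all controls, CD79B shows MSC 5 among the controls, and BTK and BLNK show MSC 3 above them.

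MS4A1 (ENSSSCG00000021812, chromosome 2, 11215901 to 11222914) stood at 2.26 scaled RPKM in control 1, 1.05 in control 2 and 1.36 in control 3, from 284, 58 and 141 reads. The MSC libraries ran from 0.0705 in MSC 6 to 0.482 in MSC 3, with a median of 0.282, from 2 to 43 reads. All 6 lay below all 3 controls, which was so for 1.97% of the genes tested. The closest pair, control 2 and MSC 3, did not overlap in counting error either, with exact Poisson 95% intervals of 0.794 to 1.35 and 0.334 to 0.673. These intervals cover counting error only. The group means were 1.56 ± 0.631 (SD, n = 3) and 0.279 ± 0.168 (SD, n = 6), 5.58 times higher in controls. The limma log2 fold change was −0.98 ± 0.18 (SE; adjusted p of 0.374). With limma-voom, which works on the reads, it was −2.59 ± 0.57, with an adjusted p of 0.465. Without control 1, the highest, the control mean was 1.20 scaled RPKM and the log2 fold change −0.77. In MSC 2 the level of 0.386 was 18 reads, close to that library's 0.215 for foreign genes. The MS4A1 row spans 7014 bases, against 12823 for MS4A1 in RefSeq (assembly Sscrofa11.1). Whether the shorter span changes the level was not tested.

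CD79B (ENSSSCG00000017283, chromosome 12, 15053007 to 15056441), one of the pair of signalling chains, stood at 0.696, 1.61 and 0.747 scaled RPKM in controls 1, 2 and 3, each from 46 to 53 reads. MSC 5 held 1.35 from 60 reads, above 2 of the 3 controls. The other 5 MSC libraries ran from 0.0160 in MSC 4, which is 1 read, to 0.237 in MSC 6, which is 4 reads. The groups thus overlapped through MSC 5 alone. The means were 1.02 ± 0.512 (SD, n = 3) and 0.328 ± 0.509 (SD, n = 6), and without MSC 5 the MSC mean was 0.124. The limma log2 fold change was −0.64 ± 0.26 (SE; adjusted p of 0.92), and without MSC 5 it was −0.83, with 0.152. With limma-voom it was −2.60 ± 0.94, with an adjusted p of 0.889.

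The row named CD79A (ENSSSCG00000033684, chromosome 6, 49975957 to 50010059) did not share the pattern of CD79B. It spans the whole of the ARHGEF1 row except its first bases, and the whole of an unnamed protein-coding row, ENSSSCG00000003042. It also lies inside the row of DMRTC2, which stood at 0 to 0.158 scaled RPKM. In RefSeq (assembly Sscrofa11.1), ARHGEF1, CD79A and the ribosomal protein gene RPS19 are separate neighbours in that stretch. The CD79A row stood at 23.4, 41.4 and 30.2 scaled RPKM in controls 1, 2 and 3, from 24.8 to 40.5 times the CD79B level in the controls and MSC 5 and from 174 to 1711 times in the other 5 MSC libraries. The MSC libraries ran from 16.6 in MSC 2 to 228 in MSC 6, with the other 5 at 52.2 or below, and 5 of 6 lay at or above the lowest control. Its reads were 30.0% to 46.4% of those on ENSSSCG00000003042 in every library, and that row held 98.7 ± 34.5 scaled RPKM (SD) over the 3 controls and 264 ± 366 (SD) over the 6 MSC libraries, with 1008 in MSC 6. The limma log2 fold change of the CD79A row was 0.46 ± 0.68 (SE; adjusted p of 0.92), and it was −0.02 without MSC 6, where the MSC mean was 32.4 instead of 64.9. How many of these reads come from the CD79A gene itself cannot be read from the table, so no level of CD79A is given.

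**Figure D2:**
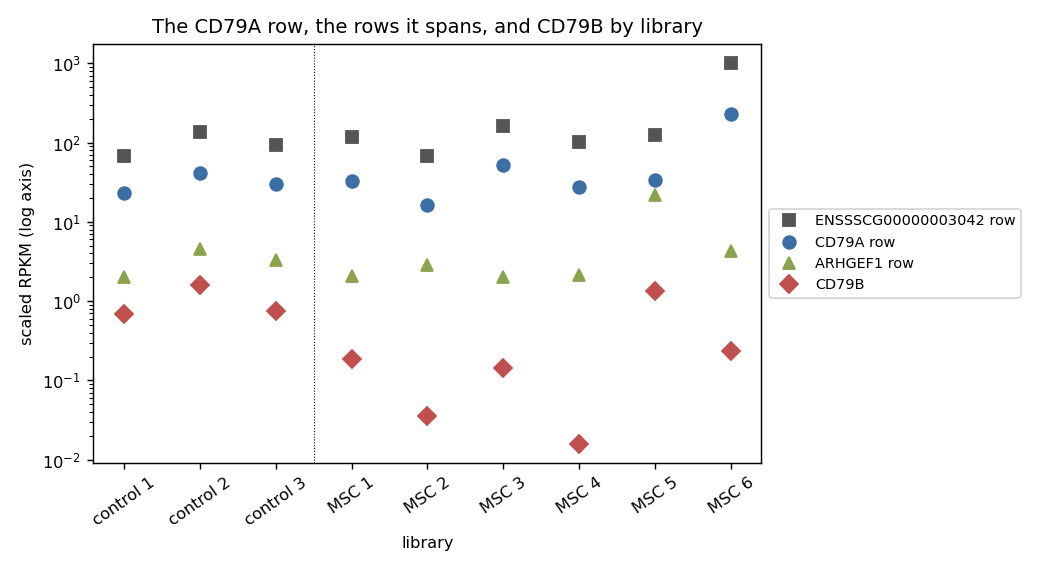
Scaled RPKM (log axis) of the CD79A row, of ENSSSCG00000003042 and ARHGEF1, whose positions it covers, and of CD79B, in each of the 9 libraries, with a dotted line between controls and MSC libraries. The CD79A row keeps below ENSSSCG00000003042 at 30.0% to 46.4% of its reads and shares its peak in MSC 6, while CD79B is lower in 5 MSC libraries and not in MSC 5.

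BLK (ENSSSCG00000027568, chromosome 14, 14688123 to 14746414), the Src family kinase of B cells, stood at 1.79, 1.42 and 0.717 scaled RPKM in controls 1, 2 and 3, from 408, 143 and 135 reads. The MSC libraries ran from 0.0943 in MSC 2 to 0.656 in MSC 5, with a median of 0.191, from 7 to 89 reads. All 6 lay below all 3 controls, as in 1.97% of the genes tested. However, MSC 5 and control 3 were within counting error of each other, with intervals of 0.526 to 0.807 and 0.601 to 0.848. The means were 1.31 ± 0.543 (SD, n = 3) and 0.260 ± 0.205 (SD, n = 6), 5.02 times higher in controls. The limma log2 fold change was −0.86 ± 0.19 (SE; adjusted p of 0.395), and −2.42 ± 0.57 with limma-voom, with an adjusted p of 0.499.

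PAX5 (ENSSSCG00000036086, chromosome 1, 237575045 to 237785413), the lineage factor, was the lowest of the 7 in both groups. It stood at 0.265, 0.153 and 0.131 scaled RPKM in controls 1, 2 and 3, from 176, 45 and 72 reads. The MSC libraries ran from 0.0134 in MSC 3 to 0.119 in MSC 5, with a median of 0.0344, from 5 to 47 reads. All 6 lay below all 3 controls, as in 1.97% of the genes tested. MSC 5 was again within counting error of control 3 (0.0874 to 0.158 against 0.103 to 0.165). The means were 0.183 ± 0.0715 (SD, n = 3) and 0.0448 ± 0.0408 (SD, n = 6), 4.08 times higher in controls. At this level the main scale hardly moves: limma gave a log2 fold change of −0.18 ± 0.07 (SE; adjusted p of 0.92), against −2.50 ± 0.68 with limma-voom, with an adjusted p of 0.564. A row named U6 lies within PAX5.

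BTK (ENSSSCG00000026742, chromosome X, 82981515 to 83014573) stood at 9.61, 8.45 and 7.10 scaled RPKM in controls 1, 2 and 3. The MSC libraries ran from 1.54 in MSC 5 to 14.0 in MSC 3, with a median of 5.44, and 2 of 6 were at or above the lowest control. Its spread was wider in MSC veins (6.17 ± 4.43, SD, n = 6) than in controls (8.39 ± 1.25, SD, n = 3). The limma log2 fold change was −0.61 ± 0.49 (SE; adjusted p of 0.92). The adaptor BLNK (ENSSSCG00000010504, chromosome 14, 107625803 to 107715368) stood at 3.44, 3.82 and 3.18 scaled RPKM in controls 1, 2 and 3. The MSC libraries ran from 0.808 in MSC 5 to 6.87 in MSC 3, with a median of 2.20. Its means were 3.48 ± 0.321 (SD, n = 3) and 2.87 ± 2.12 (SD, n = 6), with a log2 fold change of −0.36 ± 0.40 (SE) and a limma adjusted p of 0.92. Single libraries moved both values: without MSC 5 the log2 fold change was −0.35 for BTK and −0.17 for BLNK, and without MSC 3 it was −0.86 and −0.59. The 9 libraries fell in the same order for BTK and BLNK, from MSC 3 down to MSC 6 and MSC 5, except that controls 1 and 2 changed places. The BLNK row overlaps ZNF518A as RefSeq places it, and may share its reads.

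The 7 genes thus showed different orders of libraries. MS4A1, BLK and PAX5 had their highest value in control 1 and the next highest in the other controls. MSC 5 ranked 4th of 9 for BLK and PAX5 and 2nd for CD79B, but 8th for MS4A1 and last for BTK and BLNK. Genes of all leukocytes had no single order. PTPRC, the CD45 antigen, was lowest in MSC 5 at 5.45 and highest in MSC 3 at 53.9 scaled RPKM, against 30.1 to 34.7 in controls, while CORO1A and ITGB2 of the same list were highest in MSC 5, at 11.7 and 7.05. Of 12 macrophage genes, 10 were highest in MSC 3, and 5 were lowest in MSC 5, but CSF1R, a macrophage receptor, was highest there at 47.4. The summed level of the 12 was 363 scaled RPKM in MSC 5, within the 326 to 451 of the controls. PTPRC, CSF1R and the other markers in the plot by library were chosen after their values were seen.

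**Figure D3:**
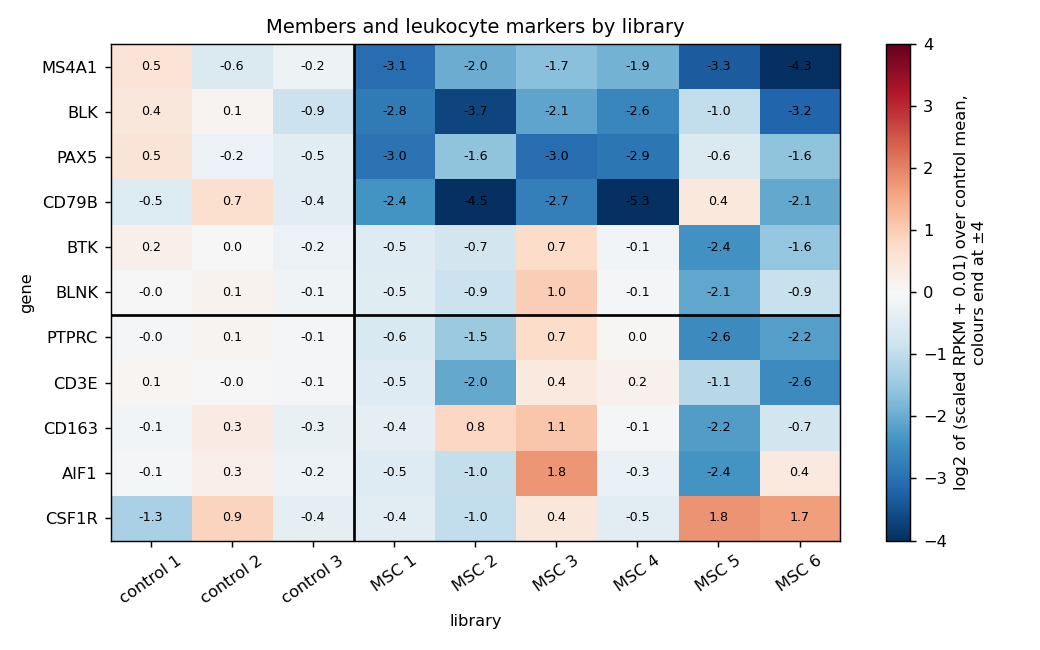
Colour and number give log2 of scaled RPKM + 0.01 over the control mean for 6 members (all but the CD79A row) and for PTPRC (all leukocytes), CD3E (T cells), and CD163, AIF1 and CSF1R (macrophages) in each library. MS4A1, BLK and PAX5 are below 0 in all 6 MSC libraries, and CD79B is in all but MSC 5, whereas BTK and BLNK are above 0 in MSC 3, as PTPRC is.

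Leukocyte markers also differed between libraries. The summed level of the 6 leukocyte genes ran from 185 to 220 scaled RPKM in controls and from 100 to 274 in MSC libraries. All 6 genes were negative in sign, against 44.7% of all genes, with a median log2 fold change of −0.36, and 0 of 6 passed the test. Per 1000 scaled RPKM of that sum, MS4A1 was 5.67 to 10.3 in controls and 0.572 to 3.85 in MSC libraries, so the groups still did not overlap. On the same scale BLK was 3.78 to 8.13 in controls and 0.941 to 5.81 in MSC libraries, with 5 of 6 below all controls and MSC 5 within their range. PAX5 also had 5 of 6 MSC libraries below all controls, as did CD79B. Per 1000 of the leukocyte sum, BTK was 37.5 to 45.8 in controls and 39.9 to 51.2 in MSC 1 to MSC 4, with only MSC 5 at 13.7 and MSC 6 at 23.0 below. BLNK likewise was below all controls in MSC 5 and MSC 6 only. Taken against the summed macrophage level instead, BTK was below all controls in 3 of 6 MSC libraries and BLNK in 5 of 6, while MS4A1, BLK and PAX5 were in 6 of 6 and CD79B in 5 of 6. LAPTM5 took 42.6% of the leukocyte sum and C1QC 41.5% of the macrophage sum, so each ratio leans on 1 gene. How many of all genes stand apart on these ratios was not counted. The ratios were chosen after the levels were seen and carry no test.

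The surface genes of B cells outside the 7 members leaned the same way by sign, without passing. CR2 was not analysed here. Of 15 measured, 13 were negative in sign, against 44.7% of all genes. The median log2 fold change was −0.27, and 0 passed over all genes. At an unadjusted p under 0.05, 2 were lower, against 2.18% of all genes, and 0 higher. In 0 of 15 did the groups stand apart. FCRL1, an Fc receptor-like protein of B cells, averaged 3.63 ± 0.586 scaled RPKM (SD) over the 3 controls and 1.45 ± 1.55 (SD) over the 6 MSC libraries, with 4.55 in MSC 3, above every control. FCER2, the CD23 antigen, averaged 0.283 ± 0.263 and 0.0511 ± 0.0388, with 0.583 in control 1. TNFRSF13B, the TACI receptor, averaged 0.171 ± 0.0905 and 0.0467 ± 0.0467. The summed level of this list was set mostly by CD81, which many cell types make and which took 58.6% of it.

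Of 17 measured genes of B cell receptor signalling, 13 were negative in sign, against 44.7% of all genes. Their median log2 fold change was −0.31, and 0 passed over all genes. FCGR2B was not analysed here. At an unadjusted p under 0.05, 2 were lower, against 2.18% of all genes, and 0 higher. In the same 2 genes all MSC libraries lay below all controls, against 1.97% of all genes. PRKCB, the protein kinase C that carries the signal to NF-kB, averaged 5.13 ± 0.426 scaled RPKM (SD) over the 3 controls and 3.04 ± 0.966 (SD) over the 6 MSC libraries. MALT1, the paracaspase of the same branch, was between 7.06 and 7.18 in controls and ran from 1.67 in MSC 5 to 7.03 in MSC 1, so MSC 1 lay just under the lowest control. RASGRP3, an activator of Ras, averaged 10.3 ± 1.09 and 7.19 ± 3.29, with overlapping groups. LYN and SYK, the kinases that start the signal, had log2 fold changes of 0.0049 and −0.39. Many of these proteins act in other leukocytes too.

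Among 14 measured B lineage transcription factors, 10 were negative in sign, against 44.7% of all genes, and 4 positive. Their median log2 fold change was −0.32, and 0 passed over all genes. At an unadjusted p under 0.05, 3 were lower, against 2.18% of all genes, and 0 higher. In 0 of 14 did the groups stand apart. POU2AF1, a co-activator of antibody genes, averaged 0.689 ± 0.444 scaled RPKM (SD) over the 3 controls and 0.0923 ± 0.106 (SD) over the 6 MSC libraries, with 0.178 in control 1, below MSC 2 at 0.278. IKZF3, the factor Aiolos, averaged 3.42 ± 0.553 and 1.42 ± 0.829, with MSC 3 at 2.83 just above control 1 at 2.79. BACH2, a repressor that holds B cells back from antibody secretion, averaged 3.67 ± 0.618 and 1.72 ± 1.22. IRF8, positive in sign, averaged 11.5 ± 4.10 and 42.9 ± 58.1, with 159 in MSC 6. EBF1, which acts with PAX5 in B cells but is also made by cells of the vessel wall and fat, stood far higher, at 38.3 ± 6.03 and 31.5 ± 12.1.

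Signals of lymphoid tissue showed no shared direction. Of 7 measured, 3 were negative and 4 positive in sign, 0 had an unadjusted p under 0.05, and 0 passed over all genes. LTA was below the filter, and CXCL13 and LTB were not analysed here. CCL21, a chemokine that draws lymphocytes, averaged 63.7 ± 37.3 scaled RPKM (SD) over the 3 controls and 31.7 ± 28.3 (SD) over the 6 MSC libraries. TNFSF13B, the survival factor BAFF, averaged 3.37 ± 0.323 and 2.16 ± 1.99, with 6.11 in MSC 3. TNFSF13, the related factor APRIL, averaged 1.92 ± 0.179 and 2.88 ± 0.958.

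**Figure D4:**
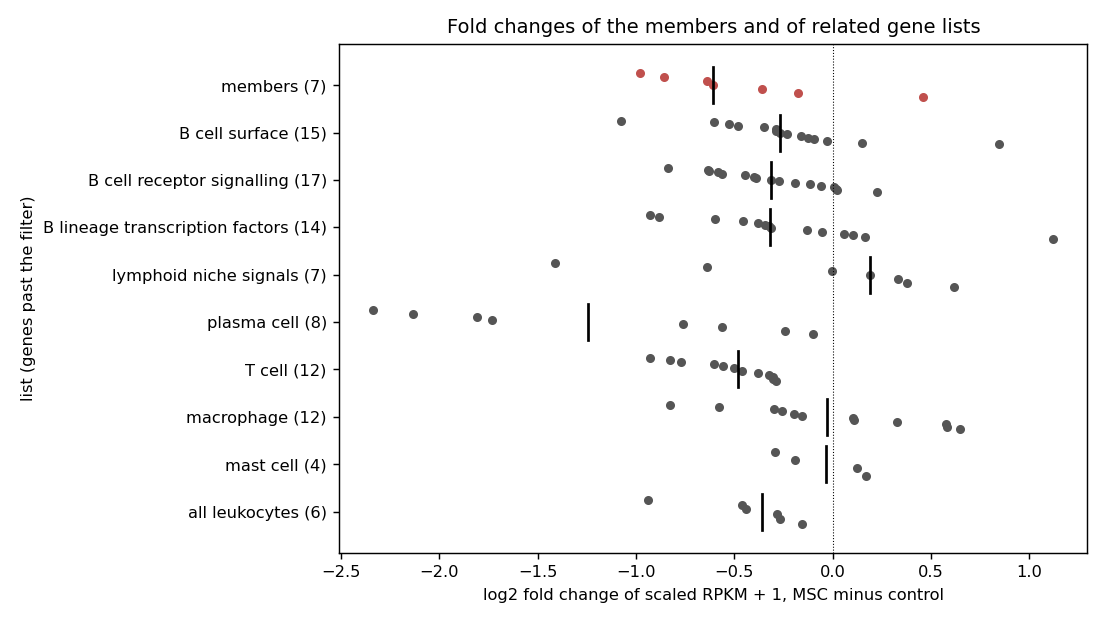
Log2 fold change (of scaled RPKM + 1, MSC minus control) of each gene past the filter, for the 7 members (red) and 9 related lists (grey), with a bar at each median. The members' median is −0.61 and those of the B cell surface, signalling and transcription factor lists −0.27, −0.31 and −0.32. The plasma cell, T cell and all-leukocyte medians are −1.25, −0.48 and −0.36, so a negative lean is not particular to the B cell lists. The macrophage and mast cell lists are centred near 0, and the lymphoid niche signals at 0.19.

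Other cell types were compared through their own lists, beside 44.7% of all genes negative in sign. All 8 measured plasma cell genes were negative in sign, with a median log2 fold change of −1.25, and 6 were lower at an unadjusted p under 0.05, against 2.18% of all genes, but 0 of 8 passed over all genes, the smallest limma adjusted p being 0.508. Their control values were low in control 1: TNFRSF17, the survival receptor BCMA, stood at 0.318 scaled RPKM there, against 6.59 in control 2 and 4.97 in control 3. MS4A1, BLK and PAX5 instead peaked in control 1. All 12 T cell genes were negative in sign, with a median of −0.48, and 0 had an unadjusted p under 0.05. Macrophage genes were split, 6 of 12 negative, with a median of −0.03. Their summed level was 326 to 451 scaled RPKM in controls and 254 to 1414 in MSC libraries, highest in MSC 3, where BTK and BLNK also peaked, and next in MSC 6 at 710, where both ranked 8th of 9. Mast cell genes, 4 measured, had 2 negative and 2 positive signs, and their sum was 31.7 to 37.9 in controls and 18.6 to 63.1 in MSC libraries. Of 3 measured neutrophil genes, all 3 were negative in sign, with a median of −0.44. The part of these cell types in the levels of the 7 genes was not tested.

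Y-linked reads and flow-cell lane also ran close to treatment. Reads on the Y-linked genes EIF1AY and KDM5D numbered 1 in control 1 and 0 in controls 2 and 3, 0 in MSC 3, and 571 to 5640 in the other MSC libraries. In MSC 3, the MSC library without these reads, MS4A1, BLK, PAX5 and CD79B were at 0.482, 0.296, 0.0134 and 0.143 scaled RPKM, each below every control. With Y-linked reads in the model the log2 fold changes were −0.91 ± 0.29 (SE) for MS4A1, −0.75 ± 0.30 for BLK, −0.53 ± 0.43 for CD79B and −0.19 ± 0.11 for PAX5. Their unadjusted limma p-values were 0.0111, 0.0317, 0.242 and 0.141, and none passed once adjusted. Only MSC 3 was treated and without Y-linked reads. With 1 such library, treatment and Y-linked reads cannot be told apart, with or without the covariate. In lanes 5 and 6 alone, which hold the 3 controls and MSC 1, MSC 3 and MSC 4, the log2 fold changes were −0.96 for MS4A1, −0.96 for BLK, −0.90 for CD79B and −0.25 for PAX5. All 3 of those MSC libraries lay below all 3 controls in these 4 genes, which was so for 9.61% of the genes tested there, and all 4 had an unadjusted p under 0.05, against 6.52% of genes lower at that level. Their limma adjusted p ran from 0.124 to 0.167. BTK and BLNK were at 0.045 and 0.13 in those lanes.

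By a fixed rule, the 3 genes most like each member were those with the highest Pearson correlation of log2(scaled RPKM + 0.1) over the 9 libraries, given as a description with no p, since each is the highest of 17884 genes. The CD79A row was most like RPL29, a ribosomal protein gene, at 0.995, then UQCR10, a subunit of the respiratory chain, and C12orf10. BTK was most like CD86, a costimulatory molecule of antigen-presenting cells, at 0.996, followed by TFEC and IL33. BLNK was most like KMO, an enzyme of tryptophan breakdown, at 0.994, followed by TNFSF15 and MAT2B. Behind an unnamed gene, BLK was most like HVCN1, a proton channel, at 0.961 and ACP5 at 0.958, and MS4A1 was most like BRI3BP and GPNMB, at 0.959 each. CD79B was most like RFFL, at 0.965, and PAX5 was most like GAREM2, at 0.952, then CPPED1 at 0.921 and PPM1H at 0.919.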

How the data were processed

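The authors deposited RPKM values, 1 column per library, per the file headers. The submitters' processing notes list susScr11 and mm10 with no role, so coordinates are as the table gives them; the aligner and counting tool are not given in the sources used here. Library input was 0.5 µg of total RNA, per the labels' protocols. RPKM times gene length plus 1 base were whole multiples of 1 step per library (100% of values within 0.01), which gave back reads. Genes were tested when 3 or more libraries held 10 reads at median depth and the sum over libraries was 15 or more. RPKM were divided by trimmed-mean-of-M-values factors (trims 0.3 and 0.05) from those reads. limma 3.58.1 in R 4.3.3 was fitted with a trend to log2(scaled RPKM + 1) over all 9 libraries with no covariate. Adjusted p-values are Benjamini-Hochberg values over all 17884 genes. The fit was also run on simulated reads. Known changes were placed there only in genes with more reads on average than MS4A1, BLK, CD79B and PAX5, so that run does not cover them.

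The table gave 14012 genes no symbol, and 785 of them took one from a gene name table. The text names the 7 members, up to 3 genes per list by smallest p and the 3 genes most like each member. LYN, SYK, EBF1, IRF8, CD81 and the markers plotted by library were added after their values were seen. Members and lists were chosen with earlier results of these data known. Some genes of the lists are not reported here by name.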

Additional observations from a re-analysis of the deposited data

Results flagged for a closer look

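In the 6 MSC libraries 20 values were tested (7 members and 13 list sums). By Dixon's test at 95%, 4 held 1 library far from the other 5. Chance gives about 1 in 20 groups, or 1 here, only where values are normally distributed. These were unlogged levels, and all 4 flags were high values, so the 4 cannot be set against that 1. Groups of 3, such as the controls, are not tested. In the CD79A row MSC 6 was far above, at 228 scaled RPKM against at most 52.2. MSC 5 was far above in CD79B, at 1.35 against at most 0.237, in BLK, at 0.656 against at most 0.296, and in the summed vein wall markers, at 48074 against at most 21270. The cause was not tested.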

How the results depend on the processing

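None of the 159 values of the 7 genes in 23 alternatives passed an adjusted p of 0.05. MS4A1, BLK, CD79B and PAX5 kept a negative sign in every alternative that tested them (CD79B and PAX5 were not tested with a filter at a count of 50). The range of log2 fold changes was −2.59 to −0.77 for MS4A1 and −2.42 to −0.69 for BLK. BLNK turned to 0.036 with lane as a covariate, 0.13 in lanes 5 and 6 alone and 0.34 with a Y-linked covariate. BTK turned to 0.045 in lanes 5 and 6 alone. The CD79A row turned to −0.016 with the replicate block; leaving out 1 library gave −0.019 (without MSC 6) to 0.72 (without MSC 2).

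The members' median of −0.61 moved to −0.98 with a pseudocount of 0.1, −2.42 with limma-voom, −0.20 with lane as a covariate, −0.25 in lanes 5 and 6 alone and −0.19 with the Y-linked covariate. Leaving out 1 library gave −0.74 to −0.35. With the replicate number as a block (replicate block) it was −0.20 and 0 genes passed, as without it. Only replicates 1, 2 and 3 have a library in both groups, so the block compares treatment within those alone. Deviations of same-numbered libraries from their group means had correlations of 0.22, −0.52 and −0.14. These 3 values cannot decide whether the libraries were paired. Over all genes, lanes 5 and 6 alone gave 5 higher and 2 lower. Leaving out 1 library gave 0 to 1 higher and 0 to 21 lower, the most without control 1 and none of them a member. The cause was not tested. Levels of 1 to 4 reads, as for CD79B in MSC 2, MSC 4 and MSC 6, limit what can be said of single libraries.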
